A study of Mus musculus with 6 samples.

Results

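Adrenergic receptors are the G protein-coupled receptors through which noradrenaline, released by sympathetic nerves, and circulating adrenaline act on fat. The 8 receptor genes described here are Adrb1 and Adrb3 (beta class), Adra1a, Adra1b and Adra1d (alpha-1 class) and Adra2a, Adra2b and Adra2c (alpha-2 class). Class levels, shares and ratios below cover these genes only. They were chosen by symbol, as 8 of the 55573 genes listed for inguinal white adipose tissue (iWAT), the subcutaneous fat of the groin. RNA-seq had been carried out on iWAT of 3 mutant and 3 Wt mice, with 1 library per mouse. The mutant mice were homozygous for a global knock-in of the THRA K283Q/K288R double mutation, which alters residues of the thyroid hormone receptor alpha involved in its sumoylation. The study asked how this mutation affects fat mass and the proliferation of fat cell precursors. The Wt mice were bred in-house, and all 6 mice were 3-month-old males of the C57BL/6NTac strain, fed regular chow and left untreated. Because the mutation is present in every cell of the mouse, a difference in iWAT cannot be assigned to 1 cell type or to fat alone.

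Beta receptors couple to Gs, which activates adenylyl cyclase, raises cAMP and starts lipolysis and, in brown or beige fat cells, heat production; Adrb3 is the receptor best known for this in mouse fat. Alpha-2 receptors couple to Gi and lower cAMP, and alpha-1 receptors couple to Gq and phospholipase C. The balance between these classes is a common way to describe how a fat depot is set to respond to catecholamines. Transcript level was measured here, not receptor protein or signalling.

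Promoter sequences of 3 of the receptor genes are shown because each holds a short motif of one of the pathways concerned, either the core TGACG of the cAMP response element or the core AGGTCA bound by thyroid hormone receptors. Each stretch is from RefSeq on GRCm38.p6, runs 5′ to 3′ on the strand of the gene, covers 250 bases before and 50 bases after an annotated start, and has the motif in capitals. The Adrb1 window lies at chr19:56721867-56722166 and the Adra2a window at chr19:54045009-54045308, both on the plus strand with TGACG in capitals. The Adra2c window lies at chr5:35278316-35278615 on the plus strand with AGGTCA in capitals. The GENCODE M21 annotation places the starts elsewhere, with Adra2a from 54044151 and Adra2c from 35278319. By that annotation the Adra2a window and nearly all of the Adra2c window lie inside the gene.
Adrb1: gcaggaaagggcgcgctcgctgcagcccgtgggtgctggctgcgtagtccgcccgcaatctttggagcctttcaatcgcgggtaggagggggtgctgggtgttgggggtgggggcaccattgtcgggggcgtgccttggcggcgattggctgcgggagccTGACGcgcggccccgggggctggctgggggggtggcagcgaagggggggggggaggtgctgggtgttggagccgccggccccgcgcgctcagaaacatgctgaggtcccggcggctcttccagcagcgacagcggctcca
Adra2a: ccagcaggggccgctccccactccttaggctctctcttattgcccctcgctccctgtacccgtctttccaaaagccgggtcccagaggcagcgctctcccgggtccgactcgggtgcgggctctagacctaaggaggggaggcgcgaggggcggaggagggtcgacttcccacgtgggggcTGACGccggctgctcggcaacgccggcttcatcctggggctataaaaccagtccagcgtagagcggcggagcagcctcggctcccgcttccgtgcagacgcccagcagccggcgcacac
Adra2c: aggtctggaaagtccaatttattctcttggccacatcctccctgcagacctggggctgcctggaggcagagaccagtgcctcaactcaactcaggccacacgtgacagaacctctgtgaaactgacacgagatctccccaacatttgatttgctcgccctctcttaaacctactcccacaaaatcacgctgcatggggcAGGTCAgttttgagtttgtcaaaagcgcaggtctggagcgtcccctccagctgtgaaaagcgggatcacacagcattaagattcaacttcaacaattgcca

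Both strands were searched in the promoter windows of 5 of the 8 genes (Adrb1, Adra1b, Adra2a, Adra2b and Adra2c; Adra1b has 2 windows). TGACG was found in the windows of Adrb1 and Adra2a and is present in 20.8% of the 32851 promoters of the table. AGGTCA was found in the Adra2c window and is present in 16.3% of them. The Adra2a window also held the core promoter motif TATAAA, which 13.6% of promoters hold. The full element TGACGTCA, which contains TGACG and is present in 1.79% of promoters, and the DR4 thyroid element, an AGGTCA pair spaced by 4 bases present in 0.0152%, were in none of these windows. The Adra1b and Adra2b windows held none of the motifs. These matches describe the letters of the windows and say nothing of binding in these mice.

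The values are normalized CPM, that is, the reads of a gene relative to the total of its library, brought to a common size and adjusted by a scaling factor for each mouse. The libraries held 19607423 to 24228381 reads on genes, and 3 reads, taken as the floor of detection, equal 0.126 to 0.157 normalized CPM. Reads differed between mice of a genotype by 19.3 to 64.9 times what sampling alone gives (chi-square divided by its degrees of freedom), so each mouse was counted as its own sample. The genotypes were compared with limma on log2(value + 0.5), a scale that understates the change of low genes, over the 16868 genes with enough reads, and a gene was called at an adjusted p (Benjamini-Hochberg over those genes) under 0.05. Of these genes 8.11% were called, and 2.61% were called lower in mutant mice. The median log2 fold change of all genes tested was -0.05. The labels name no batch.

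All 8 receptor genes had reads in every mouse, but Adra2c was under the floor in Wt mouse 3, with 2 reads. The levels of the 8 genes spanned a wide range. Adrb3 had 5840 to 13425 reads per mouse, Adra1a 275 to 469, Adra1d 56 to 178, Adrb1 42 to 111, Adra1b 41 to 83 and Adra2a 35 to 121. Adra2b had 5 to 15 reads and Adra2c 2 to 11, near the floor. The filter on low reads kept 7 of the 8, and Adra2c, which it removed, was described but not tested. Among the 7 tested receptor genes, 1 was called: Adra1d, which was lower in mutant mice. The median log2 fold change of the 7 was -0.34. With so few genes, 1 call of 7 (14.3%) cannot be told from the background of 8.11%, and no statement is made on the receptor genes as a group.

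**Figure D1:**
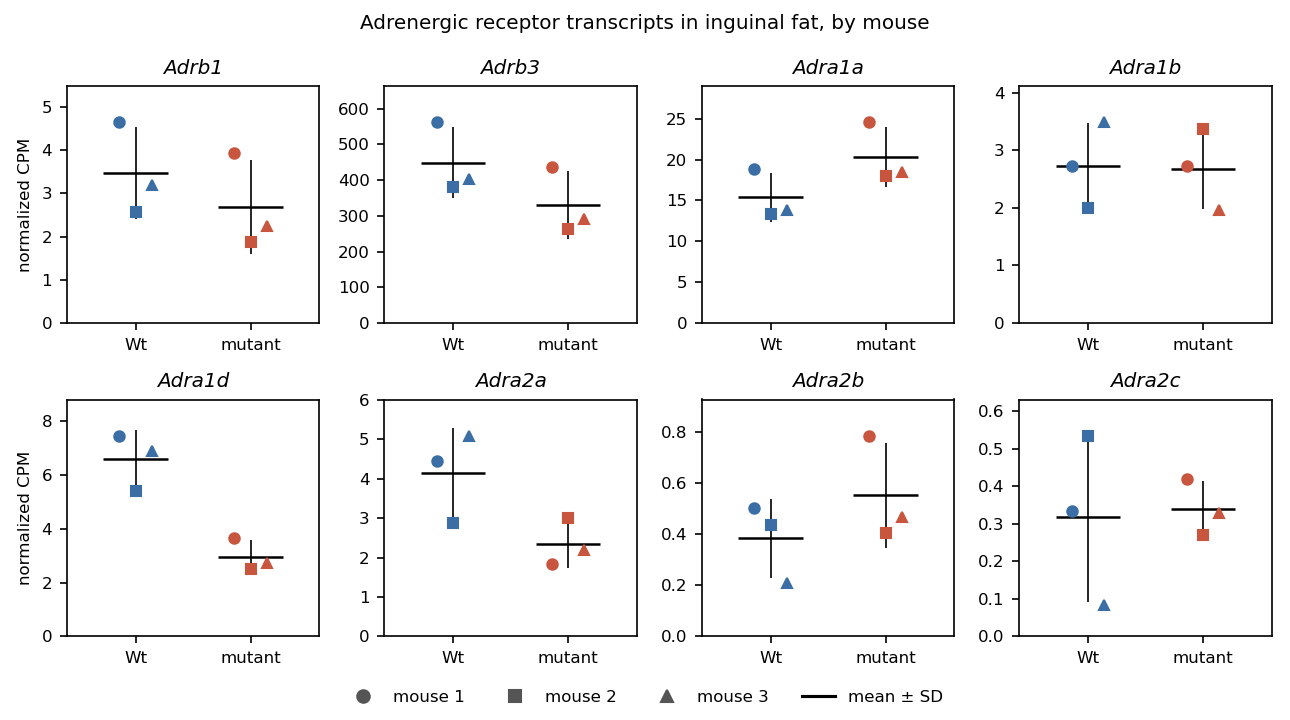
Normalized CPM (y axis, from 0, a different scale for each gene) of the 8 adrenergic receptor genes in the 3 Wt and 3 mutant mice, 1 point per mouse, with the mean and SD as lines. The mutant points of Adra1d, 2.51 to 3.67, lie below all Wt points, 5.40 to 7.46, whereas the genotypes overlap for the other 7 genes.

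Of the beta receptor genes described here, Adrb3 (ENSMUSG00000031489, GRCm38 chr8:27225776-27250616, minus strand), a lipolytic and thermogenic receptor of mouse fat cells, held nearly all of the level. Its level was 562, 380 and 404 normalized CPM in Wt mice 1 to 3 and 438, 262 and 291 in mutant mice 1 to 3. Mouse 1 was the highest of each genotype, and mutant mouse 1 exceeded Wt mice 2 and 3, so the genotypes overlapped. The means were 449 ± 99.2 in Wt and 330 ± 94.2 in mutant mice (SD, n = 3 each), a ratio of 0.736. The log2 fold change was -0.46 (SE 0.24, 95% interval -1.03 to 0.12, limma adjusted p = 0.299), so the difference, larger than the SD of either genotype, did not pass the test. The interval runs from a decrease of Adra1d's size to a small increase. Adrb3 shares 839 exon bases, 24.9% of its exons, with the antisense gene Gm45470. Over the 6 mice the mean level of Gm45470 was 16.3 normalized CPM against 389.5 for Adrb3. Whether the reads were assigned by strand is not given in the sources used here. Elsewhere, some transcripts named as opposite-strand were called higher in mutant mice. Prss23os had means of 0.692 in Wt and 12.25 in mutant mice, and Atcayos 5.92 and 26.7. How many such transcripts went the other way was not counted. Whether strand has a part in any difference between the genotypes was not tested.

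Adrb1 (ENSMUSG00000035283, chr19:56722199-56733113, plus strand), the beta receptor best known from the heart, was far lower. It measured 4.65, 2.58 and 3.20 normalized CPM across the Wt mice and 3.93, 1.88 and 2.25 across the mutant mice. Mouse 1 was again the highest of each genotype and the genotypes overlapped. The means were 3.48 ± 1.06 and 2.69 ± 1.09 (SD, n = 3 each), with a log2 fold change of -0.34 (SE 0.30, 95% interval -1.06 to 0.38, limma adjusted p = 0.511). It was -0.60 when mutant mouse 1 was left out and -0.13 when Wt mouse 1 was, the lowest and highest of the 6 such fits. The deposited tables mark both Adrb1 and Adrb3 as lncRNA, whereas GENCODE M21 lists both as protein-coding.

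Adra1d was the only receptor gene called between the genotypes in the main fit. Adra1d (ENSMUSG00000027335, chr2:131545850-131562283, minus strand) encodes the alpha-1D receptor, which is known mainly from the smooth muscle of arteries. It measured 7.46, 5.40 and 6.90 normalized CPM in the Wt mice (178, 111 and 164 reads) and 3.67, 2.51 and 2.71 across the mutant mice (70, 56 and 58 reads). Every mutant mouse was below every Wt mouse, and it was the only receptor gene of the 8 without overlap between genotypes, a pattern that 30.6% of all genes tested show in either direction. The means were 6.58 ± 1.07 in Wt and 2.97 ± 0.617 in mutant mice (SD, n = 3 each), so the level was 2.22 times as high in Wt mice. The log2 fold change was -1.03 (SE 0.19, 95% interval -1.50 to -0.57), with a limma adjusted p of 0.0257. In whole tissue, fewer cells of a type and less of a transcript per cell cannot be told apart.

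The Adra1d call rests on the full set of 6 mice. The direction was the same in each of the 6 fits that left out 1 mouse, with log2 fold changes of -1.18 to -0.94. It stayed under the threshold only without mutant mouse 1 (adjusted p = 0.0187), and was above it without Wt mouse 1 (0.0758), Wt mouse 2 (0.0552), Wt mouse 3 (0.102), mutant mouse 2 (0.104) or mutant mouse 3 (0.0839), each fit having 2 mice in one genotype. Adra1d shares 147 exon bases, 7.74% of its exons, with the antisense gene Gm14285, whose mean level over the 6 mice, 0.0949, was below the floor of detection. Adra1d is also named, without a direction of its own, in a pathway table that the study drew from these same mice. That table is not independent evidence of a difference.

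Vascular markers were looked at beside Adra1d. Of 8 vascular smooth muscle and pericyte markers none was called by limma or edgeR and 1 by DESeq2, with 1 at an unadjusted p under 0.05. Their summed level was 520 to 656 normalized CPM in Wt and 638 to 757 in mutant mice, with a median log2 fold change of 0.17. The log2 fold changes of the 8 ran from -0.25 for Notch3, a Notch receptor of mural cells, to 0.80 for Acta2, the actin of smooth muscle, with 5 above 0 and 3 below. The part of these cells in the Adra1d difference was not tested. Of the 5 endothelial markers none was called by limma or edgeR and 1 by DESeq2, with 2 at an unadjusted p under 0.05, at a summed 744 to 821 in Wt and 748 to 861 in mutant mice.

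Adra1a (ENSMUSG00000045875, chr14:66635251-66771168, plus strand), the alpha-1A receptor, pointed the other way without passing the test. Its level was 18.9, 13.4 and 13.9 normalized CPM across the Wt mice and 24.6, 18.0 and 18.4 across the mutant mice. Mouse 1 was the highest of each genotype, and Wt mouse 1 lay between the mutant mice, so the genotypes overlapped. The means were 15.4 ± 3.03 and 20.3 ± 3.68 (SD, n = 3 each), a ratio of 1.32, with a log2 fold change of 0.40 (SE 0.18, 95% interval -0.04 to 0.83, limma adjusted p = 0.246). Adra1b (ENSMUSG00000050541, chr11:43774606-43901210, minus strand), the alpha-1B receptor, was 2.72, 1.99 and 3.49 across the Wt mice and 2.72, 3.37 and 1.97 across the mutant mice. Its genotypes covered the same range, with a log2 fold change of -0.02 (SE 0.25, 95% interval -0.62 to 0.58, limma adjusted p = 0.965), an interval that still spans changes of either sign.

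Adra2a (ENSMUSG00000033717, chr19:54044151-54048982, plus strand), the alpha-2A receptor, which restrains lipolysis in fat cells and noradrenaline release from nerve endings, made up most of the alpha-2 class. It measured 4.44, 2.87 and 5.09 normalized CPM across the Wt mice and 1.83, 3.01 and 2.20 across the mutant mice. Only Wt mouse 2 and mutant mouse 2 overlapped, with the mutant mouse the higher. The means were 4.13 ± 1.14 and 2.35 ± 0.600 (SD, n = 3 each), and the log2 fold change was -0.69 (SE 0.25, 95% interval -1.30 to -0.09, limma adjusted p = 0.159, 0.0310 before adjustment). The difference therefore did not pass the test after adjustment.

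Adra2b and Adra2c were at or near the floor of detection. Adra2b (ENSMUSG00000058620, chr2:127363208-127367221, plus strand), the alpha-2B receptor, was 0.503, 0.438 and 0.210 normalized CPM across the Wt mice and 0.786, 0.404 and 0.468 across the mutant mice, from 12, 9 and 5 reads and 15, 9 and 10 reads. Its log2 fold change was 0.25 (SE 0.22, 95% interval -0.27 to 0.77, limma adjusted p = 0.503), and 0.10 to 0.35 when 1 mouse was left out. Adra2c (ENSMUSG00000045318, chr5:35278319-35281763, plus strand), the alpha-2C receptor, was 0.335, 0.535 and 0.0841 across the Wt mice and 0.419, 0.269 and 0.328 across the mutant mice. Wt mouse 3 had 2 reads of Adra2c, under the floor, and the mutant values all lay within the Wt range. The added 0.5 is larger than most of these values, so the fold change of Adra2b is strongly compressed, and a difference in Adra2c was not detectable at this depth.

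**Figure D2:**
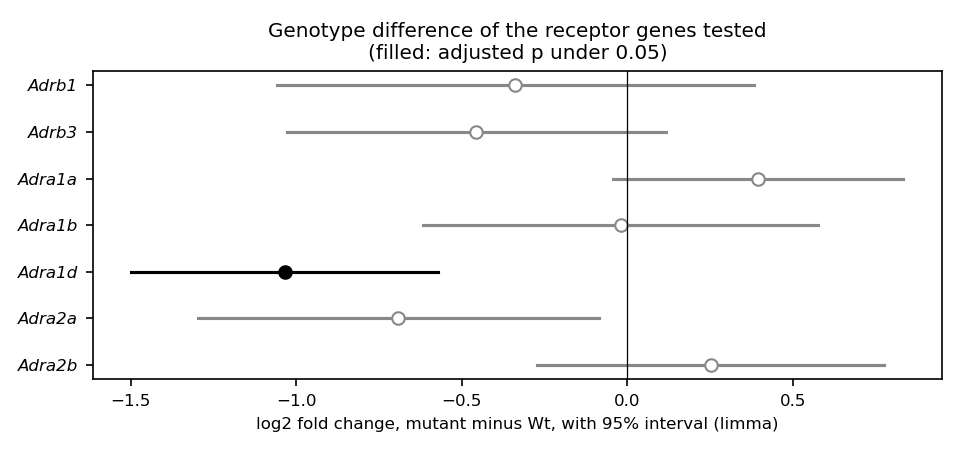
Log2 fold change, mutant minus Wt, of the 7 receptor genes tested (x axis), with the limma 95% interval as a line. Adra1d, the filled point, lies at -1.03, and the intervals of Adrb1, Adrb3, Adra1a, Adra1b and Adra2b include 0.

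To compare genes with each other, each value was divided by the length of the gene's exons in kb. On this scale of normalized CPM per kb, Adrb3 had a mean over the 6 mice of 115, with a range of 77.6 to 167, at the 98.7th percentile of all genes tested. The next gene, Adra1d, had a mean of 2.51 (1.32 to 3.93), and Adra1a a mean of 2.05 (1.53 to 2.82). Adrb1 followed with a mean of 0.911, Adra1b with 0.802 and Adra2a with 0.671, while Adra2b had 0.117 and Adra2c 0.0953.

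In this order 3 of the 7 steps between neighbours were free of overlap over the mice: Adrb3 was above Adra1d, Adra1a above Adrb1, and Adra2a above Adra2b in 6 of 6 mice. The other neighbours overlapped and were not told apart. Adra1d was above Adra1a in 3 mice of 6, and these were the 3 Wt mice. The step from Adrb1 to Adra1b held in 4 of 6 mice, that from Adra1b to Adra2a in 3 of 6 and that from Adra2b to Adra2c in 5 of 6.

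**Figure D3:**
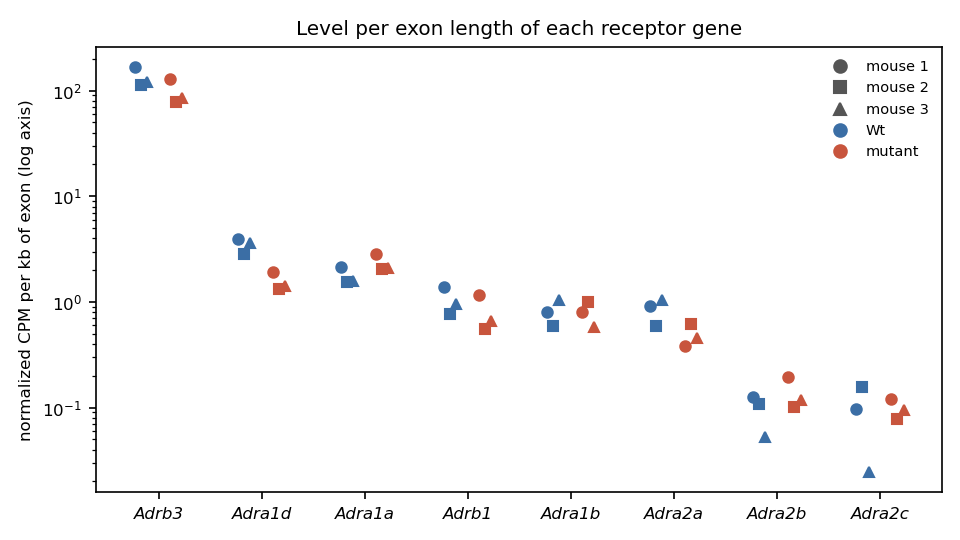
Level of each receptor gene per kb of exon (y axis, log scale) in each of the 6 mice, ordered by the mean. Adrb3 lies at 77.6 to 167, above every other receptor gene, and Adra2b and Adra2c lie lowest.

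Summed per kb, the beta receptor genes described here came to 134 ± 29.7 in Wt and 98.6 ± 28.2 in mutant mice (SD, n = 3 each). The alpha-1 sum was 6.04 ± 0.982 and 4.69 ± 0.763, and the alpha-2 sum was 1.04 ± 0.161 and 0.722 ± 0.0704. The beta genes described here therefore held 94.9% ± 0.628 of the summed level of the 8 genes in Wt and 94.7% ± 0.833 in mutant mice, nearly all of it Adrb3. The alpha-1 share was 4.32% ± 0.508 and 4.60% ± 0.608, and the alpha-2 share 0.751% ± 0.121 and 0.732% ± 0.226. The beta and alpha-1 sums overlapped between genotypes. The alpha-2 sums did not: they were 1.14, 0.858 and 1.13 across the Wt mice and 0.697, 0.801 and 0.667 across the mutant mice, and Adra2a, which missed the threshold on its own, carried most of them.

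The balance of classes was taken in each mouse as the log2 ratio of these sums, with beta standing for Adrb1 and Adrb3 only. No test was run on this balance. Beta over alpha-1 was 4.46 ± 0.175 in Wt and 4.37 ± 0.201 in mutant mice (SD, n = 3 each), a difference of -0.09. Beta over alpha-2 was 6.99 ± 0.237 and 7.06 ± 0.473, a difference of 0.07. Alpha-1 over alpha-2 was 2.53 ± 0.0627 and 2.69 ± 0.277, a difference of 0.16. The first and the second difference were smaller than the SD of either genotype. The third was larger than the SD of the Wt mice but smaller than that of the mutant mice. The genotypes overlapped in each of the 3 ratios. Leaving out 1 mouse gave -0.19 to 0.01 for beta over alpha-1, -0.18 to 0.29 for beta over alpha-2 and 0.01 to 0.28 for alpha-1 over alpha-2, so the first and the second have no fixed sign.

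The class balances depended on the division by exon length, since the long Adra1a weighs more without it. Undivided, beta over alpha-1 was 4.29, 4.20 and 4.07 across the Wt mice and 3.83, 3.47 and 3.66 across the mutant mice, a difference of -0.53 with no overlap. Alpha-1 over alpha-2 was then 2.46, 2.43 and 2.17 across the Wt mice and 3.35, 2.70 and 2.95 across the mutant mice, a difference of 0.64 with no overlap. Beta over alpha-2 still overlapped, with a difference of 0.11.

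Within the alpha-1 class, Adra1a and Adra1d moved apart between the genotypes. No test was run on their ratio, which was chosen after the values were seen. The log2 ratio of Adra1a to Adra1d per kb was -0.86, -0.89 and -1.19 across the Wt mice and 0.54, 0.64 and 0.56 across the mutant mice. The Wt mice therefore had more Adra1d than Adra1a per kb and the mutant mice more Adra1a than Adra1d, with no overlap and a gap of 1.41 between the nearest mice. The means were -0.98 ± 0.18 and 0.58 ± 0.05 (SD, n = 3 each), a difference of 1.56. That difference does not depend on gene length, but the side of 0 on which a mouse falls does: undivided, Adra1a was above Adra1d in every mouse, since its 6 annotated transcripts cover 8728 exon bases against 1899 for Adra1d. Per kb, Adra1d made up 2.49% ± 0.317 of the summed receptor level in Wt and 1.52% ± 0.0961 in mutant mice, and Adra1a 1.25% ± 0.0299 and 2.28% ± 0.211.

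**Figure D4:**
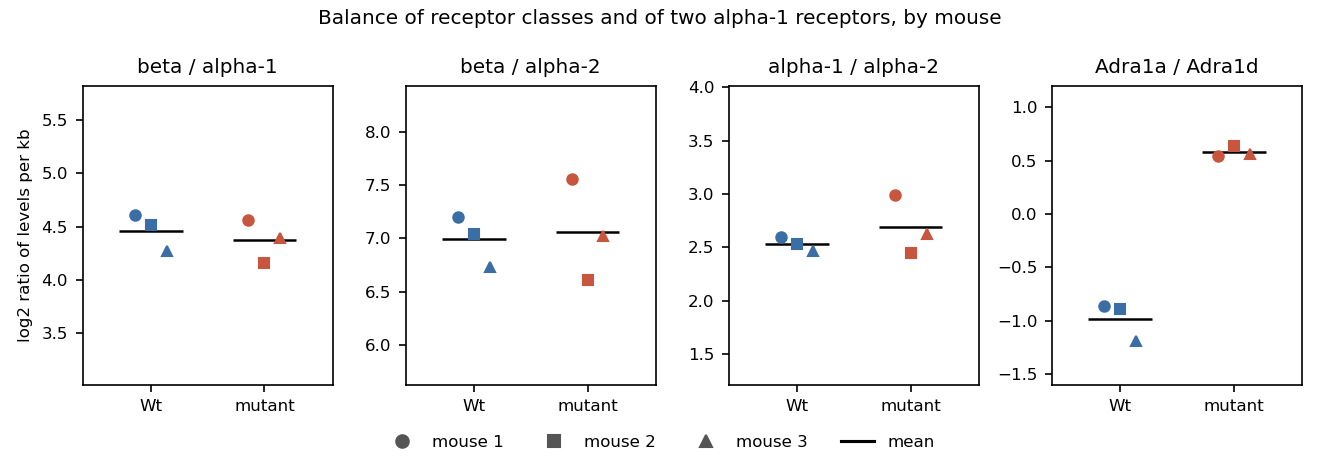
Log2 ratios of summed levels per kb between receptor classes, and of Adra1a to Adra1d (y axes, each spanning the same number of log2 units), by mouse, with the mean of each genotype as a line. The genotypes overlap for the 3 class ratios per kb and are 1.41 apart for Adra1a over Adra1d.

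Across the 6 mice, levels of some receptor genes moved together, which is given as a description over 6 points that share genotype and library. On log2(value + 0.5), Pearson's r was 0.97 between Adrb1 and Adrb3, 0.83 between Adrb3 and Adra1d, 0.83 between Adra1a and Adra2b and 0.75 between Adra1d and Adra2a. It was -0.43 between Adra1a and Adra1d and -0.76 between Adra2a and Adra2b. The genes closest to Adrb3 among 16867 were Flad1 (r = 0.9954), Pwwp2b (0.9950) and Zfp768 (0.9942). Those closest to Adra1d were Fbln7 (0.9963), Gpx4-ps2 (0.9955) and Trpc4ap (0.9951), and those closest to Adra2a were Gnpda1 (0.9953), Dll1 (0.9915) and Zfp446 (0.9912). Fbln7, a secreted matrix protein of the fibulin family, had a mean of 5.97 normalized CPM in Wt and 2.57 in mutant mice. With 6 mice, the best of so many genes will have a high r.

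The genes that carry adrenergic signals from the receptors were taken from 7 lists of 68 genes, of which 62 were tested. Of these, 4 were called (6.45%, against 8.11% of all genes), 2 higher and 2 lower in mutant mice, and their median log2 fold change was -0.12. Neither limma nor edgeR called a gene among the 5 Gi proteins, the 7 Gq proteins and phospholipases C beta, or the 8 genes tested for catecholamine synthesis, uptake and breakdown. At an unadjusted limma p under 0.05 these lists had 1, 0 and 2 genes, and DESeq2 called 0, 0 and 1. A single gene was called by limma in each of the other lists: 1 of 10 among the Gs proteins and adenylyl cyclases, 1 of 11 among the receptor kinases, arrestins and RGS proteins, 1 of 11 among the other Gs- or Gi-coupled receptors of fat cells, and 1 of 10 among the genes induced by beta-adrenergic stimulation of fat. In that order, these lists had 4, 3, 5 and 2 genes at an unadjusted limma p under 0.05. DESeq2 called 2, 2, 4 and 1 of their genes, and edgeR 1, 0, 1 and 1.

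On the Gs side, Gnal, a Gs-type alpha subunit known from olfactory neurons and striatum, fell. It measured 12.7, 11.1 and 10.5 normalized CPM across the Wt mice and 4.61, 4.62 and 5.47 across the mutant mice, with no overlap. The log2 fold change was -1.14 (SE 0.14, limma adjusted p = 0.00552), and it stayed called in each of the 6 fits without 1 mouse. Gnal is also in the pathway table that the study drew from these mice. Gnas, the Gs alpha subunit of most tissues and the most abundant gene of the list, was 935 ± 82.8 in Wt and 988 ± 75.6 in mutant mice (SD, n = 3 each), with a log2 fold change of 0.08 (SE 0.14, limma adjusted p = 0.734). Gnas thus differed by less than the spread between mice.

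The most abundant genes of the Gi and Gq lists did not pass the test. Gnai2, a Gi alpha subunit, was 411 ± 38.1 normalized CPM in Wt and 328 ± 41.1 in mutant mice (SD, n = 3 each), with a log2 fold change of -0.33 (SE 0.13, limma adjusted p = 0.189). Gnaq, the Gq alpha subunit through which alpha-1 receptors act, was 100.4 ± 13.4 and 106 ± 14.6, with a log2 fold change of 0.08 (SE 0.14, limma adjusted p = 0.749).

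Among the regulators of receptor activity, Grk5, a kinase that phosphorylates active G protein-coupled receptors and leads to their desensitization, rose. It measured 49.2, 38.8 and 45.2 normalized CPM across the Wt mice and 69.0, 64.5 and 57.2 across the mutant mice. All mutant mice were above all Wt mice, and the log2 fold change was 0.52 (SE 0.12, limma adjusted p = 0.0497). This call lay at the threshold and was lost in all 6 fits without 1 mouse (adjusted p = 0.0606 to 0.162), with edgeR's quasi-likelihood test (0.0516) and in 3 other alternatives of 9. Rgs5, a regulator of G protein signalling known from pericytes and the most abundant gene of that list, was 322 ± 45.6 and 384 ± 46.5 (SD, n = 3 each), with a log2 fold change of 0.26 (SE 0.15, limma adjusted p = 0.343).

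Mc2r, the ACTH receptor, which also raises cAMP in mouse fat cells, rose. It measured 18.1, 15.2 and 14.3 normalized CPM across the Wt mice and 33.4, 26.8 and 24.1 across the mutant mice, without overlap. The log2 fold change was 0.80 (SE 0.15, limma adjusted p = 0.0290), and the call was lost without Wt mouse 2 (0.115), Wt mouse 3 (0.106) or mutant mouse 2 (0.1001). Tshr, the thyrotropin receptor and the most abundant of these other receptors, was 144 ± 28.6 and 212 ± 43.2 (SD, n = 3 each), with a log2 fold change of 0.56 (SE 0.19, limma adjusted p = 0.143).

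Of the genes that beta-adrenergic stimulation is known to induce in fat, Ucp1, the uncoupling protein of brown and beige fat, fell. It measured 15.5, 7.39 and 15.3 normalized CPM across the Wt mice and 3.46, 3.23 and 3.51 across the mutant mice, so that every mutant mouse was below the lowest Wt mouse. The log2 fold change was -1.69 (SE 0.29, limma adjusted p = 0.0187), and Ucp1 is also in an upstream regulator table that the study drew from these mice. The call was lost without Wt mouse 1 (0.0571), Wt mouse 3 (0.0727), mutant mouse 2 (0.0821) or mutant mouse 3 (0.0607). None of the other 9 genes tested from this list was called by limma, with 1 at an unadjusted p under 0.05, and edgeR and DESeq2 called 1 gene of the list each. Pdk4, its most abundant gene, had a log2 fold change of -0.19 (SE 0.19, limma adjusted p = 0.553). The list as a whole had a median of -0.16.

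Of the genes of catecholamine handling, Dbh, which makes noradrenaline from dopamine, named after its values were seen, had 0 reads in every mouse, which allows a level of up to 0.126 to 0.157 normalized CPM. Th, the first enzyme of catecholamine synthesis, likewise named after its values were seen, did not pass the read filter, and its reads were 0, 1 and 0 across Wt mice and 10, 3 and 23 across mutant mice. Transcripts of sympathetic neurons lie mostly in their cell bodies outside the fat, so these counts do not measure innervation.

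**Figure D5:**
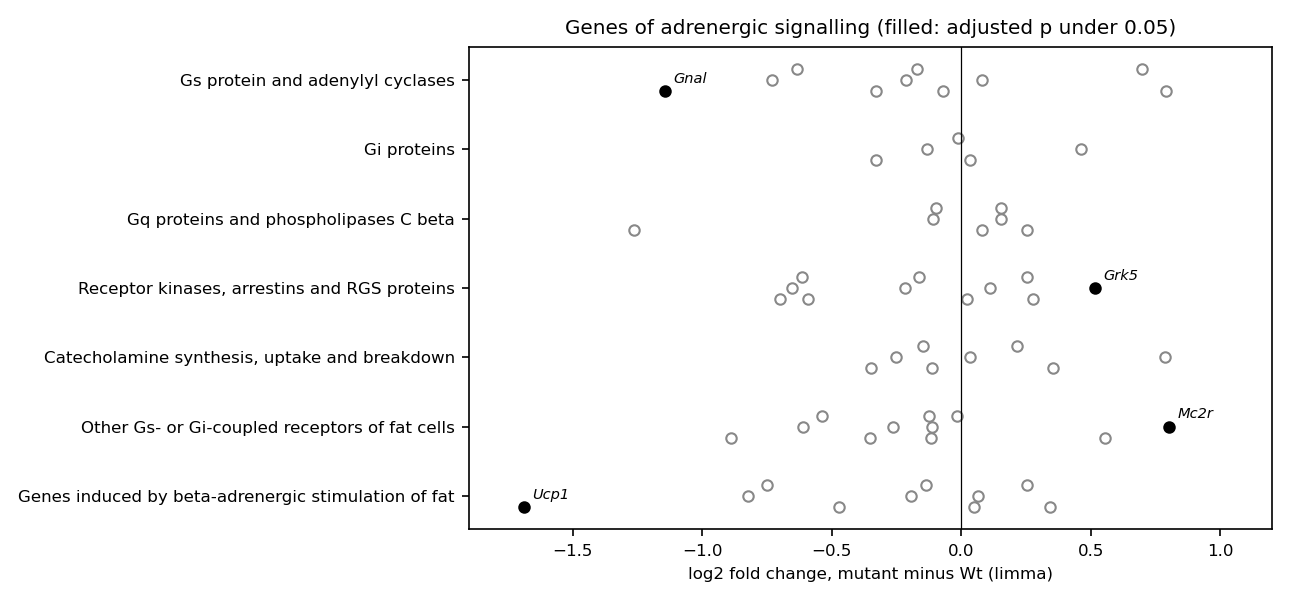
Log2 fold change, mutant minus Wt, of the 62 tested genes of the 7 adrenergic signalling lists (x axis), 1 row per list and 1 point per gene. The 4 filled and named points passed the threshold, Gnal at -1.14 and Ucp1 at -1.69 to the left of 0, Grk5 at 0.52 and Mc2r at 0.80 to the right.

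Cell type markers showed what the dissected tissue held. The 6 adipocyte markers summed to 13680 to 19550 normalized CPM in Wt and 11180 to 17670 in mutant mice, and none was called by limma or edgeR. DESeq2 called 2, and 2 had an unadjusted limma p under 0.05. The median log2 fold change of the 6 was -0.17. Neither limma nor edgeR called any marker of progenitors (5 tested), macrophages (5), lymphocytes (6), skeletal muscle (7), Schwann cells (5) or epithelium (5). At an unadjusted p under 0.05 these lists had 3, 1, 0, 1, 1 and 1 genes, and DESeq2 called 2, 1, 0, 1, 1 and 1. Progenitor markers summed to 1645 to 1963 normalized CPM in Wt and 2034 to 2834 in mutant mice, macrophage markers to 968 to 1225 and 935 to 1079, Schwann cell markers to 155 to 215 and 175 to 249, and epithelial markers to 5.16 to 68.8 and 3.79 to 9.24. Skeletal muscle markers summed to 11220 to 24490 in Wt and 16180 to 25920 in mutant mice, and lymphocyte markers to 246 to 585 and 3.30 to 484. Mesothelial markers were called higher in mutant mice for 6 of 8 genes, at a summed 4.81 to 32.9 in Wt and 37.7 to 77.2 in mutant mice, and 4 of the 8 had no read in at least 1 mouse. Of 14 circadian clock genes 9 were called, 3 higher and 6 lower, at a summed 1016 to 1292 in Wt and 691 to 845 in mutant mice. The part of any of these in the difference in Adra1d, Gnal, Grk5, Mc2r or Ucp1 was not tested.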

How the data were processed

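The deposited signal of each gene is its CPM after normalization by the authors, whose processing notes name Bowtie2 2.1.0, RSEM 1.2.15, edgeR and mm10 without roles. The annotation and use of strand are not given in the sources used here. Every value was a whole number of reads (100% of values, tolerance 0.05) times a step, which gave the reads. Genes kept by filterByExpr of edgeR 4.0.16 were tested with limma 3.58.1 (mean-variance trend) in R 4.3.3 on log2(value + 0.5), at an FDR of 0.05. A count test had been foreseen for raw counts, and on the recovered reads edgeR's quasi-likelihood test called 1168 genes and DESeq2 1.42.0 called 2147, against 1368 with limma. The test was checked on simulated data. Identifiers were matched to GENCODE M21 on GRCm38 (55480 of 55573). For 3 mice per genotype, the smallest p of an exact permutation test (two-sided) is 0.1.

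The receptor genes and lists were chosen with earlier results of these data known. Named besides the receptors are the genes called in a list (the 4 with the largest change where over 5 were called), the most abundant gene of each signalling list, and the 3 genes most correlated with the most abundant receptor per class. Acta2, Notch3, Dbh and Th were named after their values were seen, and Gm45470 and Gm14285 for their overlap with a receptor gene. Adrenergic receptor genes outside these 8, and 1 gene that this rule names, are not reported here. Alternatives were other scalings, pseudocounts, filters and tests, a replicate block, leaving out each mouse, and no length division. Floors and intervals of reads cover counting error only.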

Additional observations from a re-analysis of the deposited data

How the results depend on the processing

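Besides leaving out mice, 9 alternatives were fitted, and Adra1d was called lower in all 9 (adjusted p = 0.000534 to 0.0445, log2 fold change -1.15 to -0.94). Leaving out each mouse gave 0 to 1 receptor genes called and 1 to 5 signalling genes, against 1 and 4 with all mice. DESeq2's Wald test called 10 signalling genes. Over all genes, leaving out a mouse gave 554 to 1005 calls, a filter of at least 10 reads in every mouse 598, and scaling by library size alone 1284, of which 1019 were higher and 265 lower, against 928 and 440 with the authors' scaling. Leaving out mice moved the log2 fold change of Adrb3 over -0.68 to -0.28, of Adra1a over 0.25 to 0.55 and of Adra2a over -0.91 to -0.54 (adjusted p = 0.129 to 0.403), with none called. Adra1b, near 0, changed sign without Wt mouse 3 (0.14) or mutant mouse 3 (0.15), within a leave-out range of -0.20 to 0.15. Without length division, beta over alpha-1 differed by -0.53 and alpha-1 over alpha-2 by 0.64, both with the genotypes apart.

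In the fit with a replicate block for mouse number, 3 receptor genes were called (Adrb3, adjusted p = 0.0112; Adra1a, 0.0235; Adra1d, 0.0112), as were 25 signalling genes and 4063 genes in all; Adra2a was not (0.127). The same number marks different mice in the 2 genotypes, and deviations of same-numbered mice correlated at 0.686, 0.0573 and 0.560, with Wt mouse 2 closer to mutant mouse 3 (0.332). The labels do not say what the number marks, and whether it pairs the mice is not settled.

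Depth limits Adra2b and Adra2c, and the labels do not say whether the mice shared a litter, a dissection day or a library batch.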

Other observations

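Among the 14 clock genes, the largest changes were those of Dbp, a PAR bZIP output gene, with a log2 fold change of -2.34 (SE 0.12, limma adjusted p = 0.00122), Npas2 and Arntl, which form activators of the clock (1.93, adjusted p = 0.00166, and 1.58, adjusted p = 0.00309), and Per2, a repressor (-1.39, adjusted p = 0.00293). The time of day at which each mouse was killed is not given in the sources used here. Of the mesothelial markers, Upk3b (4.53), Msln (3.49), Upk1b (3.29) and Wt1 (2.38) had the largest log2 fold changes, all called higher in mutant mice. Dbp, Npas2, Arntl, Per2, Msln and Wt1 are also in the upstream regulator table that the study drew from these mice. Whether the clock or the mesothelial changes have a part in the levels of the receptor genes was not tested.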
